A study of Homo sapiens with 14 samples.

Results

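The genes described are the human members of 3 families of high mobility group chromatin proteins. They are HMGB1, HMGB2 and HMGB3, HMGA1 and HMGA2, and HMGN1, HMGN2, HMGN3, HMGN4 and HMGN5. They were taken by family name and are 10 of the 54628 gene symbols counted in 14 RNA-seq libraries. All 10 passed the filter on low counts in each of the 7 comparisons made.

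High mobility group proteins are abundant nuclear proteins that bend DNA or bind nucleosomes without being histones. HMGB proteins bind the minor groove through HMG boxes and bend DNA, and HMGB1 also acts outside the cell as an alarm signal when it is released. HMGA proteins bind AT-rich DNA through AT-hooks, and in fibroblasts they accumulate in the condensed chromatin foci of senescent cells. HMGN proteins bind the nucleosome core and compete with linker histone H1, and loss of nuclear HMGB1 and HMGB2 is a known feature of senescent fibroblasts.

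The cells were IMR90, a widely used human lung fibroblast line of primary origin. The titles of all libraries say IMR90, while the cell line labels of ICM 3, ICM 4 and both siCTCF libraries carry other numbers, and the titles were followed. Senescence was induced with inflachromene (ICM), a small molecule that binds HMGB1 and HMGB2, at 10 µM for up to 6 days. WT libraries came from untreated wild-type cells, and siHMGB2 libraries from untreated cells in which HMGB2 was knocked down by siRNA. ICM libraries came from treated wild-type cells, and siSRRM2, siBANF1 and siCTCF libraries are labelled as treated cells with siRNA against SRRM2 (a splicing speckle protein), BANF1 (a DNA-bridging nuclear envelope protein) or CTCF (an insulator protein). The comparisons asked what ICM, loss of HMGB2, and each further knockdown in ICM-treated cells did to expression. The labels give WT no siRNA, so exposure to siRNA cannot be told apart from loss of HMGB2 in siHMGB2 against WT. The same holds for each further knockdown against ICM, whose libraries came from treated wild-type cells. The labels mention more than a single isolate of the line without assigning libraries to isolates. The p-values therefore measure the spread between these libraries only, which may be technical. Each group had 2 libraries, except ICM, which had 4. ICM 3 and ICM 4 were described in another form together with siCTCF, and were kept apart from ICM 1 and ICM 2, so that 7 groups of 2 libraries resulted. The smallest exact permutation p that 2 libraries against 2 can give is 0.333, so tests rest on the fit across all genes.

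Gene counts per library ranged from 22336161 to 58257456. Levels are given as CPM, the usual depth-scaled count, with the gene counts of a library as its total. Replicates were unequally close. The median chi-square per gene between the 2 libraries of a group, with 0.455 expected from sampling, was 1.11 to 10.1 in 5 groups, 50.8 in ICM 1-2 and 49.0 in siBANF1. The 6 libraries of ICM 1-2, siSRRM2 and siBANF1 had 3.26% to 6.16% of their counts on small RNA genes, and the other 8 libraries had 0.00617% to 0.0108%, so this composition cannot be told apart from treatment in ICM 1-2 against WT. WT has no library described in the form used for ICM 3-4, so set and treatment cannot be told apart in that comparison. For CTCF the 2 siCTCF libraries had 71.5 and 23.0 CPM, below the 94.9 and 91.9 CPM of ICM 3 and ICM 4. The libraries labelled siSRRM2 had SRRM2 at 76.1 and 76.4 CPM, below the 238 and 112 CPM of ICM 1 and ICM 2. It was lower still, at 59.0 and 17.0 CPM, where the label is siBANF1. There BANF1 was at 17.0 and 36.7 CPM, against 13.5 and 32.7 CPM in ICM 1 and ICM 2, which goes against that label. Where the label is siSRRM2, BANF1 had 34.2 and 33.3 CPM, so it was below both ICM libraries in neither group.

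Promoter windows from RefSeq, on the GRCh38.p14 assembly, were at hand for 8 of the 10 genes, in 12 windows that run from 250 bases before a start site to 50 bases after it. The 2 genes without one are HMGB2 and HMGA2. Of 35116 such windows in the genome, 34.6% held the CCAAT box, the site of the factor NF-Y, at least once on either strand, 10.8% held it at least 2 times and 3.26% at least 3 times. A window of HMGB1 and a window of HMGB3 each held it 3 times, HMGN1 and HMGN3 had it 2 times, HMGN2 and both windows of HMGA1 had it 1 time, and the windows of HMGN4 and HMGN5 did not hold these letters. Genes with several start sites are counted here by their richest window, whereas the share in the genome is per window. The cell cycle letters TTTGAA were in 1 window of HMGB1 and 1 of HMGB3 (15.2% of all windows), and neither TTTCGCGC nor TTTGGCGC, letters of E2F sites, was in any of the 12 (1.15% of all windows). The GC box GGGCGG was in windows of HMGA1, HMGB1, HMGB3, HMGN1, HMGN2 and HMGN4 (45.0% of all windows). The 4 sequences below are the windows of HMGB1 and HMGB3, which were lower in every ICM library than in WT, of HMGN3, which was also lower with HMGB2 knocked down, and of HMGN4, which no comparison called in the edgeR fit to all its libraries. They are given 5′ to 3′ on the strand of the gene, shortened where they run into an exon, with CCAAT or its reverse complement in capitals, and lie at chr13:30465937-30466186 on the minus strand, chrX:150983085-150983315 on the plus strand, chr6:79234709-79234932 on the minus strand and chr6:26538116-26538365 on the plus strand. A match describes the letters of a window and shows no bound site.
HMGB1: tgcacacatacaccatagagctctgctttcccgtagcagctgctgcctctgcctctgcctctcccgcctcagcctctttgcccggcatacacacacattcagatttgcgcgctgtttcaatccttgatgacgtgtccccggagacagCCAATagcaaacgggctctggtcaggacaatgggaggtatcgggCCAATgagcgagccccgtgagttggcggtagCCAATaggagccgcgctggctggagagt
HMGB3: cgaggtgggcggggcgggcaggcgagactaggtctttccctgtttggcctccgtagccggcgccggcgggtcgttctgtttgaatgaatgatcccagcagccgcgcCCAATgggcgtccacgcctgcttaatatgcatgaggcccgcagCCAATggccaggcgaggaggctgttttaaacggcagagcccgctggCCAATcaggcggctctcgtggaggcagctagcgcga
HMGN3: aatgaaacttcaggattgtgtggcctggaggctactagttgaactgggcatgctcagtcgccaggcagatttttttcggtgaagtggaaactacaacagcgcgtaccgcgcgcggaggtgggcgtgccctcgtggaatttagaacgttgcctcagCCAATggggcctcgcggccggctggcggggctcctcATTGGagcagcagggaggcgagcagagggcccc
HMGN4: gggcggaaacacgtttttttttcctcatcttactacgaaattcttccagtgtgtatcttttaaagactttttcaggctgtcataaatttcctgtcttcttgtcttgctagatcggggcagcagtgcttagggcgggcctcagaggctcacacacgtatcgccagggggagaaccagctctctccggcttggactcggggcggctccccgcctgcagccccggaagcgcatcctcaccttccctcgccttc

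HMGB1, on chromosome 13 (30456704 to 30617597, minus strand), encodes an abundant HMG-box architectural protein. It was at 373 and 366 CPM in WT 1 and WT 2, and at 379.8 and 337 CPM in siHMGB2 1 and siHMGB2 2. In ICM 1 and ICM 2 it was at 103 and 158 CPM, and in ICM 3 and ICM 4 at 104 and 97.6 CPM. All 4 ICM libraries lay below both WT libraries, and the siHMGB2 libraries overlapped them. The libraries labelled siSRRM2 were at 138 and 137 CPM, those labelled siBANF1 at 94.2 and 159 CPM, and siCTCF at 122 and 113 CPM. Ordered by their means, WT and siHMGB2 formed an upper pair with overlapping libraries, and siSRRM2, ICM 1-2, siBANF1 and siCTCF followed with each overlapping the next. ICM 3-4 had the lowest mean, below both siCTCF libraries, and overlapped ICM 1-2 and siBANF1.

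HMGB2, on chromosome 4 (173331695 to 173335125, minus strand), encodes the close relative of HMGB1 that is linked to proliferating cells. It was at 27.7 and 28.0 CPM in WT. In siHMGB2 it was at 3.18 and 3.52 CPM, and it fell 7.93-fold against WT (log2 fold change -2.99, SE 0.16, adjusted p by edgeR 8.28e-07). ICM 1 and ICM 2 were at 8.13 and 9.60 CPM, and ICM 3 and ICM 4 at 7.65 and 11.5 CPM. Every ICM library was thus below WT and above both siHMGB2 libraries. The lowest of all 14 values was 2.18 CPM in the library labelled siBANF1 1, whose replicate 2 was at 7.14 CPM. Counts of HMGB1 exceeded those of HMGB2 13.5 and 13.1 times in WT, 120 and 95.5 times in siHMGB2, and between 8.45 and 16.5 times in the 4 ICM libraries, so within ICM libraries this ratio was on both sides of the WT values.

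HMGB3, on the X chromosome (150980509 to 150990775, plus strand), encodes the HMGB protein best known from blood and embryonic cells. WT libraries held it at 35.7 and 35.3 CPM, and siHMGB2 libraries at 39.5 and 36.5 CPM. The ICM libraries were at 11.8, 27.6, 19.6 and 21.9 CPM in the order of their numbers. ICM 1 and ICM 2 differed from each other by more than ICM 3 and ICM 4 did, and all 4 were below WT. The other treated libraries lay between 14.6 and 28.3 CPM, and from siBANF1 down to siSRRM2 each group overlapped the next.

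All 3 HMGB genes fell in ICM 3-4 against WT. The fall was 4.15-fold for HMGB1 (log2 fold change -2.05, SE 0.16, adjusted p by edgeR 0.000589), 3.31-fold for HMGB2 (-1.73, SE 0.24, adjusted p 0.00254) and 1.95-fold for HMGB3 (-0.96, SE 0.17, adjusted p 0.00516). The call of HMGB3 was lost without WT 1 (adjusted p 0.0611) or without WT 2 (0.0583). In ICM 1-2 against WT the log2 fold changes were -1.57 (SE 0.32) for HMGB1, -1.71 (SE 0.29) for HMGB2 and -0.94 (SE 0.42) for HMGB3, and none was called, with adjusted p of 0.104, 0.0946 and 0.273. DESeq2 called HMGB1 (adjusted p 0.00545) and HMGB2 (0.00166) there, and so did a single edgeR fit to all 14 libraries (0.00417 and 0.0214). In siHMGB2 against WT neither HMGB1 (0.02, SE 0.14) nor HMGB3 (0.16, SE 0.13) was called. The libraries hold RNA of whole cultures, in which fewer cells of a kind and less RNA per cell cannot be told apart.

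**Figure D1:**
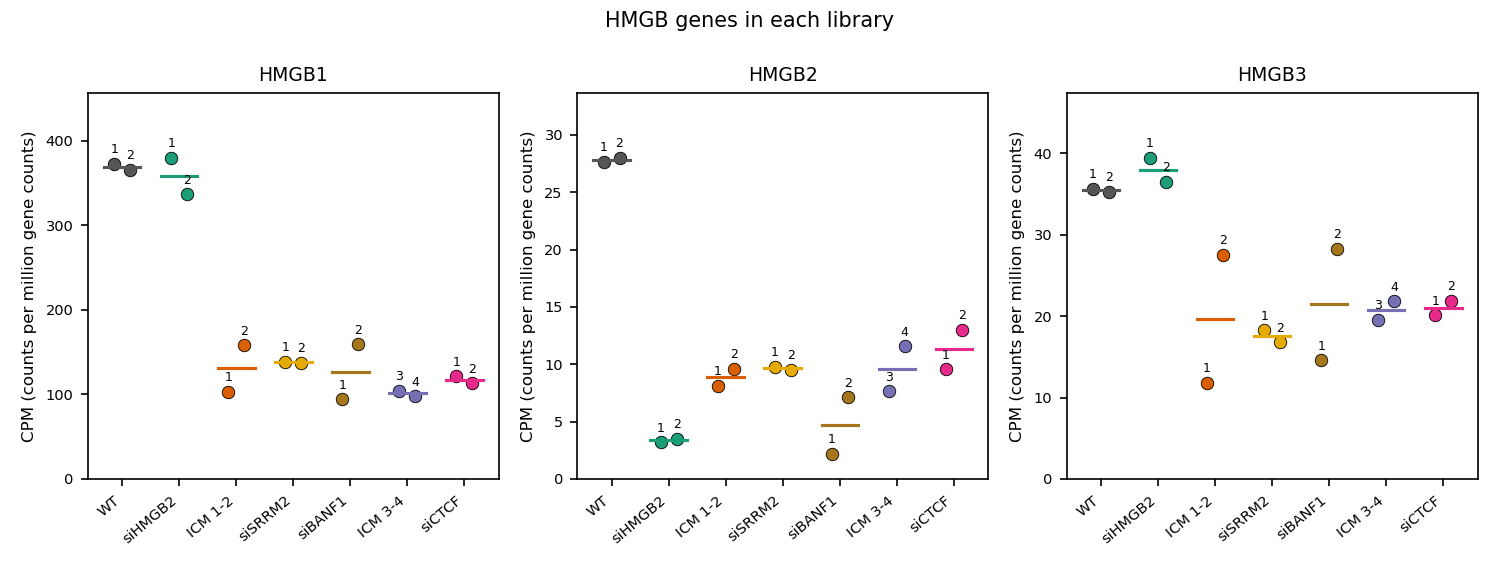
CPM of HMGB1, HMGB2 and HMGB3 (vertical axes, depth-scaled counts) in the 14 libraries by group; points are libraries with their replicate number and bars are means of 2 libraries. The 4 ICM libraries lie below both WT libraries in all 3 panels, and HMGB2 is at 3.18 and 3.52 CPM in siHMGB2.

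HMGA1, on chromosome 6 (34236873 to 34246231, plus strand), encodes the AT-hook protein that most cells express at some level. WT had 316 and 292 CPM, and siHMGB2 had 338 and 564 CPM. ICM 1 and ICM 2 lay on either side of WT, at 160.5 and 435 CPM. ICM 3 and ICM 4 were at 1182 and 1167 CPM, and siCTCF 1 and siCTCF 2 at 1089 and 1172 CPM. These 4 libraries were above all others, whose highest value was the 564 CPM of siHMGB2 2. The libraries labelled siSRRM2 were at 214 and 215 CPM and those labelled siBANF1 at 391 and 475 CPM.

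HMGA2, on chromosome 12 (65824131 to 65966295, plus strand), encodes the embryonic AT-hook protein that let-7 microRNAs repress. It was at 228 and 204 CPM in WT and higher in both siHMGB2 libraries, at 316 and 364 CPM. ICM 1 and ICM 2 were at 205 and 219 CPM, within the WT range, whereas ICM 3 and ICM 4 were at 84.0 and 88.9 CPM. The libraries labelled siSRRM2 were at 94.1 and 93.4 CPM and siCTCF at 101 and 87.6 CPM. The libraries labelled siBANF1 were at 447 and 222 CPM, and the first of these was the highest of the 14 values. In the order of means, siHMGB2, siBANF1, WT and ICM 1-2 each overlapped the next, and a gap followed. Below it siCTCF overlapped both siSRRM2 and ICM 3-4, and siSRRM2 lay above both ICM 3-4 libraries.

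The 2 HMGA genes parted in ICM 3-4. Against WT, HMGA1 rose 3.40-fold (log2 fold change 1.76, SE 0.17, adjusted p by edgeR 0.000869) and HMGA2 fell 2.84-fold (-1.51, SE 0.15, adjusted p 0.001). Neither was called in ICM 1-2 against WT, with log2 fold changes of -0.13 (SE 0.49) and -0.08 (SE 0.29). The value of HMGA1 there was 0.35 without ICM 1 and -0.87 without ICM 2. The ratio of HMGA1 to HMGA2 counts within a library was 1.39 and 1.43 in WT and 0.784 and 1.98 in ICM 1 and ICM 2. It was 14.1 and 13.1 in ICM 3 and ICM 4 and 10.7 and 13.4 in siCTCF. This ratio does not depend on how the libraries are scaled, and its values in ICM 3-4 and siCTCF did not overlap those of any other group, whose highest was 2.30.

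With HMGB2 knocked down in untreated cells, HMGA2 rose 1.65-fold (log2 fold change 0.72, SE 0.14, adjusted p by edgeR 0.00515), above WT in both libraries. HMGA1 had a log2 fold change of 0.64 (SE 0.20) and just missed the call (adjusted p 0.0581). Its value rests on siHMGB2 2, without which it was 0.21 (adjusted p 0.472), while without siHMGB2 1 it was 0.96 and called (0.00206). It was also called without WT 1 (0.0304), among protein-coding genes only (0.0266), with a minimum mean of 10 CPM (0.0417) and with at least 1 count (0.000499), and not without WT 2 (0.0887) or by DESeq2 (0.316). A fit to all 14 libraries called no gene in this comparison, HMGB2 itself included (adjusted p 0.201), with 908 genes at an unadjusted p under 0.05.

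**Figure D2:**
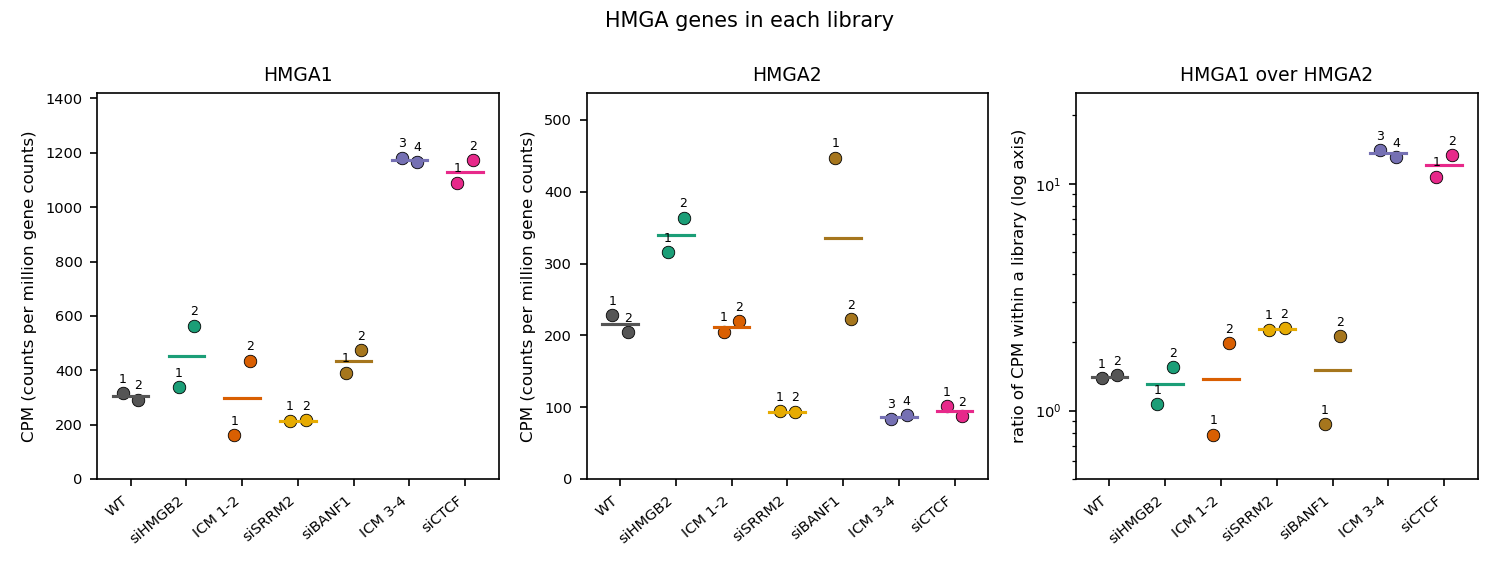
CPM of HMGA1 and HMGA2 and the ratio of HMGA1 to HMGA2 within a library (log axis) in the 14 libraries by group; points are libraries with their replicate number and bars are means of 2 libraries. The ratio is 10.7 to 14.1 in ICM 3-4 and siCTCF and at most 2.30 in the other 10 libraries.

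HMGN1, on chromosome 21 (39342315 to 39349647, minus strand), and HMGN2, on chromosome 1 (26472450 to 26475972, plus strand), encode the 2 major nucleosome-binding HMGN proteins. WT had 226 and 232 CPM of HMGN1, which siHMGB2 (215 and 234 CPM) overlapped. It was at 135 and 158 CPM in ICM 1 and ICM 2 and at 100.2 and 120.1 CPM in ICM 3 and ICM 4, and all 4 were below WT. The libraries labelled siSRRM2, at 208 and 210.2 CPM, lay between WT and ICM. For HMGN2 the WT libraries had 126 and 141 CPM, and ICM 1 to ICM 4 had 44.5, 94.1, 96.8 and 76.2 CPM. Here too every ICM library was below WT. The siHMGB2 libraries (105 and 119 CPM) were below WT as well, but HMGN2 was not called there (log2 fold change -0.19, SE 0.13, adjusted p by edgeR 0.45).

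HMGN3, on chromosome 6 (79201245 to 79234738, minus strand), encodes an HMGN protein enriched in brain and endocrine cells. Its WT levels were 31.7 and 31.0 CPM. Both siHMGB2 libraries were lower, at 17.4 and 16.3 CPM, and it fell 1.78-fold in that comparison (log2 fold change -0.83, SE 0.14, adjusted p by edgeR 0.00136). The ICM libraries were at 12.2, 29.96, 17.7 and 25.1 CPM, so ICM 2 lay just under WT and ICM 1 below siHMGB2. HMGN4, on the same chromosome (26538405 to 26546254, plus strand), is a copy of HMGN2 that arose by retroposition. It was at 64.9 and 65.5 CPM in WT, 66.2 and 63.0 CPM in siHMGB2, 44.8 and 92.1 CPM in ICM 1 and ICM 2, and 66.6 and 67.4 CPM in ICM 3 and ICM 4. No comparison called it in the edgeR fit to all its libraries. Under scaling by total counts its log2 fold change in ICM 3-4 against WT turned from -0.15 to 0.04. In ICM 1-2 against WT its log2 fold change was 0.33 without ICM 1 and -0.49 without ICM 2. HMGN5, on the X chromosome (81113701 to 81201942, minus strand), has a long acidic tail and unfolds compact chromatin. It was the lowest member on the CPM scale in every group mean but that of siHMGB2, at 5.15 and 4.75 CPM in WT, 4.61 and 3.21 CPM in siHMGB2, 0.984 and 0.682 CPM in ICM 1 and ICM 2, and 2.13 and 2.52 CPM in ICM 3 and ICM 4.

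In ICM 3-4 against WT, HMGN1 fell 2.37-fold (log2 fold change -1.24, SE 0.16, adjusted p by edgeR 0.00178). HMGN2 (-0.81, SE 0.19, adjusted p 0.0141), HMGN3 (-0.74, SE 0.21, 0.0262) and HMGN5 (-1.27, SE 0.30, 0.0133) fell too. The calls of HMGN2, HMGN3 and HMGN5 were lost without WT 1 (adjusted p 0.057, 0.159 and 0.106) and without WT 2 (0.105, 0.138 and 0.0795), those of HMGN2 and HMGN3 in the fit to all 14 libraries (0.141 and 0.208), and that of HMGN3 with scaling by total counts (0.0805). The log2 fold changes in ICM 1-2 against WT were -0.70 for HMGN1 (SE 0.27), -1.03 for HMGN2 (SE 0.38), -0.66 for HMGN3 (SE 0.43), -0.01 for HMGN4 (SE 0.36) and -2.60 for HMGN5 (SE 0.52). None was called, with adjusted p from 0.104 to 0.987. DESeq2 called HMGN5 there (adjusted p 0.000361), and the fit to all 14 libraries called HMGN5 (0.00431) and HMGN1 (0.0361).

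**Figure D3:**
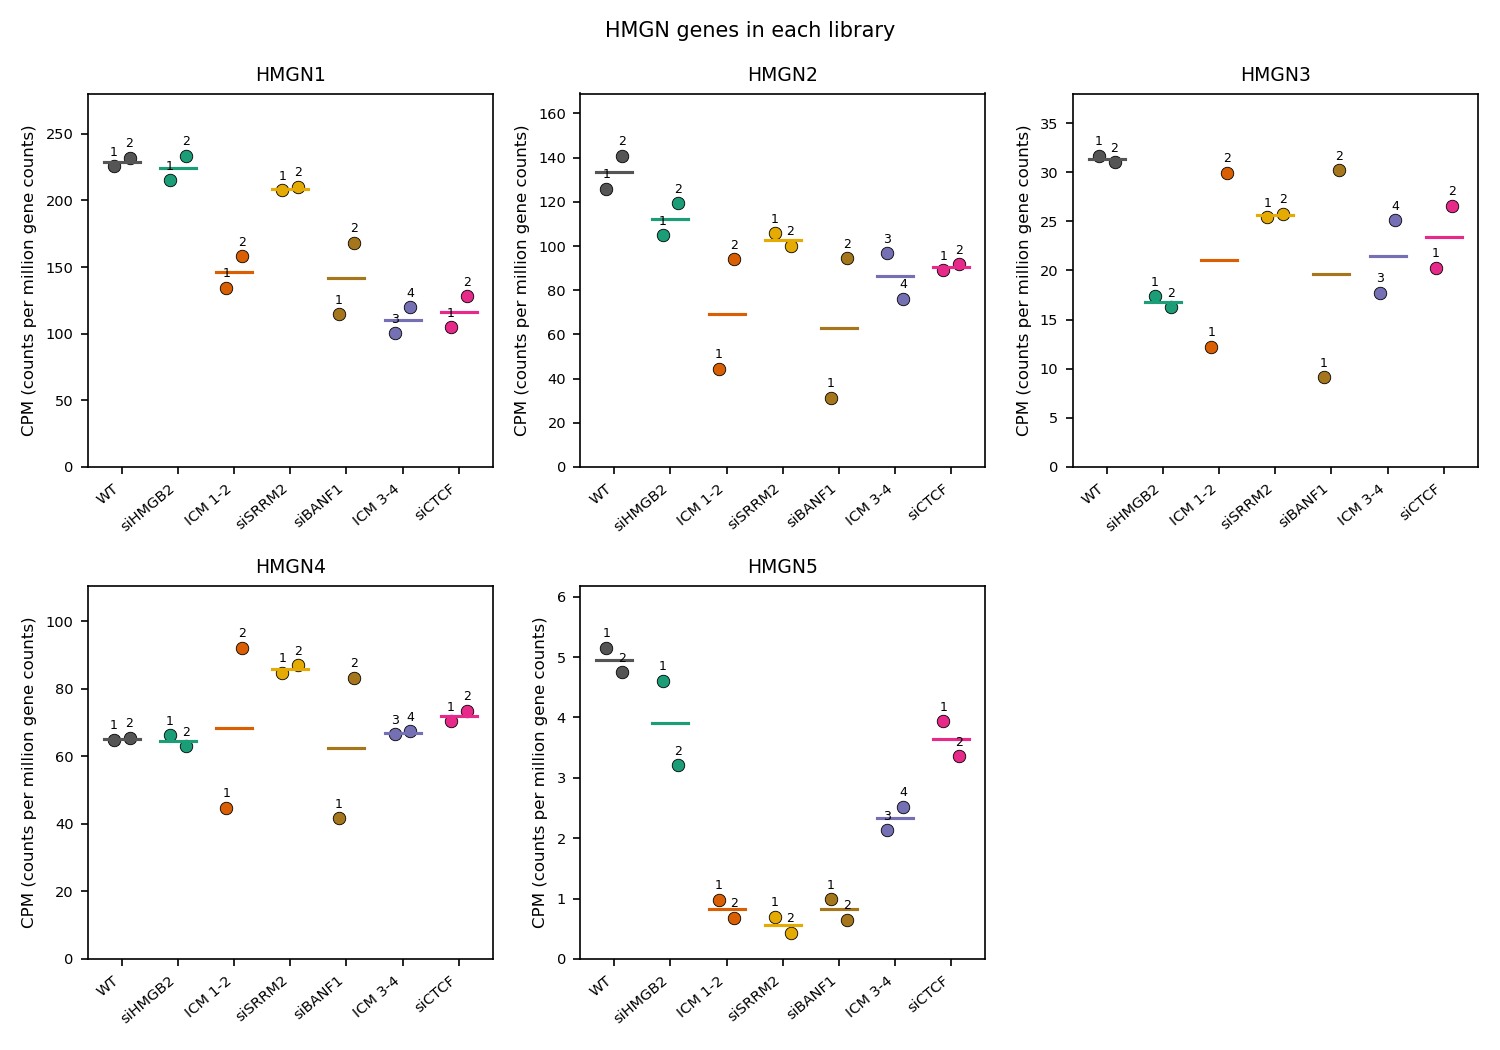
CPM of HMGN1 to HMGN5 (vertical axes) in the 14 libraries by group; points are libraries with their replicate number and bars are means of 2 libraries. HMGN1, HMGN2, HMGN3 and HMGN5 are lower in all 4 ICM libraries than in WT, and HMGN4 is on both sides of it.

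Over the 10 genes, ICM 3-4 against WT called 8 lower and 1 higher. Of the 15677 genes tested 55.2% were called, 27.3% lower and 27.8% higher. The median log2 fold change of the 10 was -1.10, beside 0.01 over all genes tested. The fit to all 14 libraries called 6 lower and 1 higher there, and 30.3% of genes in all. ICM 1-2 against WT called 0 of the 10 and 0% of 16617 genes by edgeR's quasi-likelihood test, with 3664 genes at an unadjusted p under 0.05 and 1917 called by DESeq2. The median of the 10 there was -0.82, beside 0.09 over all genes. The fit to all 14 libraries called 4 of the 10 in that comparison, HMGB1, HMGB2, HMGN1 and HMGN5, all lower, where it called 13.5% of genes in all and 6.86% lower. In 7 of the 10, namely HMGB1, HMGB2, HMGB3, HMGN1, HMGN2, HMGN3 and HMGN5, all 4 ICM libraries were below both WT libraries, which held for 16.9% of 19126 genes. The comparisons of ICM 1-2 and ICM 3-4 with WT share their WT libraries. In siHMGB2 against WT 3 of the 10 were called, HMGB2 and HMGN3 lower and HMGA2 higher, where 10.9% of 15338 genes were called, 4.74% lower and 6.14% higher. Scaling by total counts turned that split from 941 higher and 727 lower to 786 higher and 999 lower, with the same count of members called. The targeted gene is among those 3, and the median of the 10 was 0.03, beside 0.0018 over all genes.

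**Figure D4:**
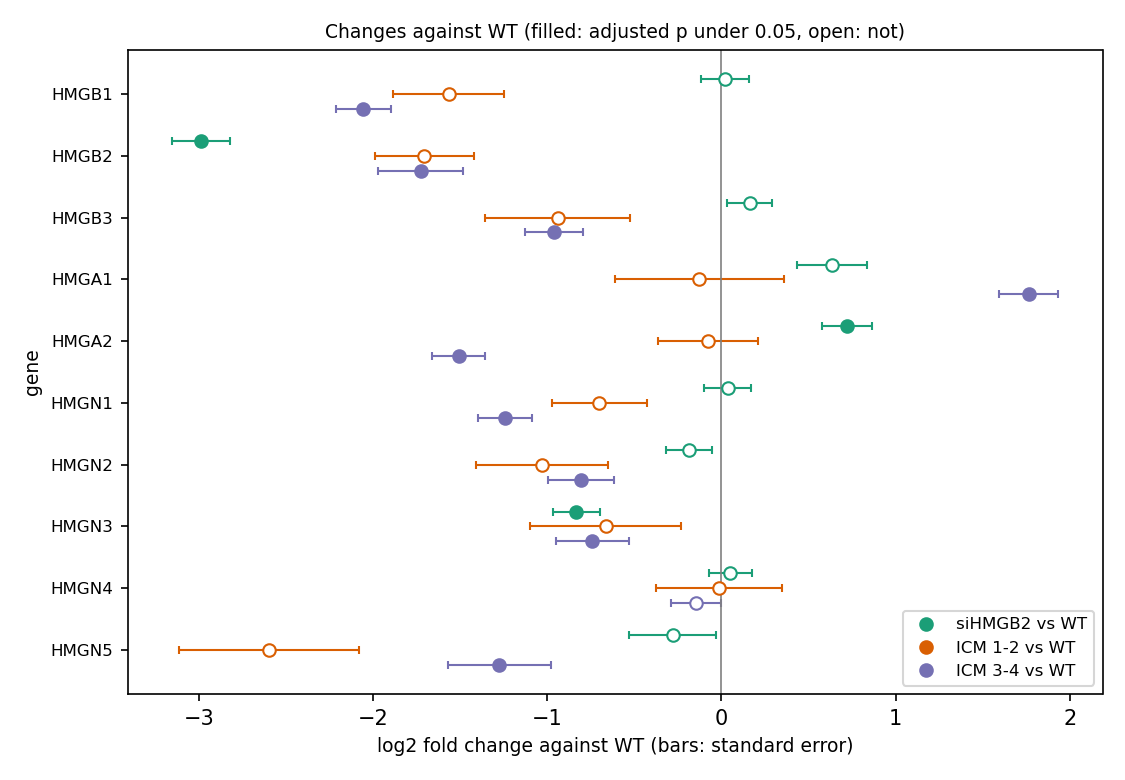
Log2 fold changes of the 10 genes against WT (horizontal axis, bars are standard errors) for siHMGB2, ICM 1-2 and ICM 3-4, each with 2 libraries; filled points had an edgeR adjusted p under 0.05. ICM 3-4 has filled points for all genes but HMGN4, ICM 1-2 for none, and siHMGB2 for HMGB2, HMGA2 and HMGN3.

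ICM 3-4 and ICM 1-2 carry the same treatment, and their difference was tested directly. Of 16195 genes 0.84% were called and none of the 10 was. HMGA1 differed by 1.87 on the log2 scale (SE 0.55, adjusted p by edgeR 0.108) and HMGA2 by -1.46 (SE 0.39, adjusted p 0.0911). DESeq2 called both (adjusted p 0.00888 and 0.0189). The fit to all 14 libraries, which called 19.5% of genes, called HMGA1 (0.00972), HMGA2 (0.0166) and HMGN5 (0.0468, higher in ICM 3-4). HMGB1 (-0.51, SE 0.39), HMGB2 (-0.05, SE 0.49) and HMGB3 (-0.04, SE 0.48) were called by neither.

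The further knockdowns in ICM-treated cells called 0 genes in edgeR's quasi-likelihood test. For the libraries labelled siSRRM2, 1488 of 16828 genes had an unadjusted p under 0.05 and DESeq2 called 206, none of them among the 10. HMGA2 was lower in both, with a log2 fold change of -1.19 (SE 0.22, adjusted p 0.551), and HMGN1 (0.51, SE 0.22) and HMGN2 (0.58, SE 0.38) were higher in both. The 2 groups were apart in these 3 of the 10 and in 42.9% of all genes. For the libraries labelled siBANF1, 24 of 17616 genes had an unadjusted p under 0.05 and DESeq2 called 0. HMGB2 (log2 fold change -0.95, SE 0.68) was below and HMGA2 (0.69, SE 0.57) above both ICM 1-2 libraries, as 13.8% of genes were on either side. The difference of HMGB2 was -1.96 without siBANF1 2 and -0.35 without siBANF1 1. Deviations of same-numbered siBANF1 and ICM 1-2 libraries correlated at 0.87. With the replicate number as a block, HMGB2 was at -1.13 (SE 0.38, adjusted p by edgeR 0.526). HMGA2 was then at 0.58 (SE 0.28, adjusted p 0.652) and HMGA1 at 0.71 (SE 0.29, adjusted p 0.595), and none of them was called. For siCTCF, 18 of 14704 genes had an unadjusted p under 0.05 and DESeq2 called 0. HMGB1 (0.23, SE 0.16), HMGN4 (0.11, SE 0.15) and HMGN5 (0.66, SE 0.34) were above both ICM 3-4 libraries, where 15.8% of genes did not overlap.

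To compare the genes with each other, CPM was divided by the length in kilobases of all annotated exons of a gene, which understates a gene such as HMGA2, whose exons add up to 14037 bases over all its transcripts. On this scale HMGN1 led in WT at 146 ± 2.77 CPM per kilobase (SD, n = 2), followed by HMGA1 (131 ± 7.34) and HMGN2 (112 ± 8.82), and HMGN5 was last (2.33 ± 0.136). HMGA1 led in both libraries of siHMGB2, siBANF1, ICM 3-4 and siCTCF, and HMGN1 in both of siSRRM2. In ICM 1-2 the order differed, with HMGN1 (85.6) above HMGA1 (69.0) in ICM 1 and HMGA1 (187) above HMGN1 (101) in ICM 2. In ICM 3-4 HMGA1 was at 505 ± 4.50, which is 66.9% of the sum over the 10 genes, against 23.2% in WT. HMGB1 held 8.90% of that sum in WT and 1.82% in ICM 3-4.

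Several members have processed pseudogenes whose reads could be shared. Symbols formed from HMGB1 followed by P and a number were 50, and they took 3.77% to 14.9% of the counts of gene and pseudogenes together. There were 48 for HMGN2 (2.71% to 17.9%), 38 for HMGN1 (2.23% to 9.54%), 32 for HMGB3 (up to 13.5%) and 8 for HMGA1 (up to 1.5%). For HMGB1 the share was 4.83% and 4.89% in WT and 12.7% and 12.2% in ICM 3 and ICM 4. For HMGN2 it was 3.38% and 2.71% in WT and 16.3%, 16.2%, 13.9% and 14.8% in ICM 1 to ICM 4. Adding these counts moved the log2 fold change of HMGN2 in ICM 1-2 against WT from -1.03 to -0.82. With pseudogene counts added to each gene, 8 of the 10 were again called lower and 1 higher in ICM 3-4 against WT. Exons of HMGA2 and HMGN3 overlap genes on the other strand. HMGN3-AS1 was at 0.711 to 2.84 CPM, and reads from it and HMGN3 cannot be told apart if the counting did not use strand.

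Among 8882 protein-coding genes of at least 10 CPM on average, those most like HMGB1 over the 14 libraries, by Pearson r of log2(CPM + 1), were ANLN (0.98), GOLM1 (0.97), HNRNPA1 (0.96), H1-10 (0.96) and TOP2A (0.96). ANLN, a scaffold of the cytokinetic ring, was at 39.4 CPM on average in WT and 3.46 CPM over the 4 ICM libraries, and TOP2A, the topoisomerase of dividing cells, at 61.6 and 3.41 CPM. HMGA2 was most like GJC1 (0.95), E2F3 (0.93), INHBA (0.92), PIP4K2A (0.92) and DGKI (0.92). No gene came as close to HMGB2, whose nearest were AVPI1 (0.79), GLUL (0.76), HMGN3 (0.75), AMMECR1 (0.74) and HSD17B4 (0.74). These values describe libraries that share groups, depth and composition. Within the family HMGB1 correlated with HMGB3 at 0.87 and with HMGB2 at 0.20, and HMGN3 with HMGN4 at 0.82, over the same 14 libraries. Those include the siHMGB2 libraries, where HMGB2 itself was targeted (3.18 and 3.52 CPM) and HMGB1 was at 379.8 and 337 CPM. All correlations of HMGB2 given here therefore include its own knockdown.

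Genes that work with or beside the family were read from fixed lists. Of 7 linker histones, which HMGN proteins displace from nucleosomes, 4 were tested in ICM 3-4 against WT, and 2 rose and 1 fell, where 55.2% of all genes were called. H1-2 rose from 10.2 and 7.63 CPM in WT to 157 and 185 CPM in ICM 3 and ICM 4 (log2 fold change 4.07, SE 0.22, adjusted p by edgeR 0.000377), and was at 159 and 457 CPM in ICM 1 and ICM 2. H1-10 fell from 171 and 125 CPM to 40.4 and 35.3 CPM (-2.15, SE 0.22, adjusted p 0.000978). In siHMGB2 against WT none of the 3 tested was called, where 10.9% of all genes were.

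Of 21 other HMG-box genes 19 were tested in ICM 3-4 against WT, and 4 rose and 10 fell, beside 27.8% and 27.3% of all genes, with a median log2 fold change of -0.64. CIC, a repressor downstream of receptor kinases, rose from 59.4 and 57.7 CPM to 195 and 241 CPM (1.71, SE 0.16, adjusted p by edgeR 0.000837), and TCF7, a Wnt effector, fell from 23.2 and 19.9 CPM to 5.90 and 2.17 CPM (-2.59, SE 0.49, adjusted p 0.00656). In siHMGB2 against WT 1 rose (TOX2) and 2 fell, where 10.9% of all genes were called. Of 12 genes of extracellular HMGB1 signalling 7 were tested in ICM 3-4, and 1 rose and 4 fell, against the same shares. LY96, the partner of TLR4, rose from 11.8 and 10.8 CPM to 41.6 and 42.3 CPM (1.70, SE 0.18, adjusted p 0.00109), and THBD, which binds HMGB1 on endothelium, was called lower, from 5.21 and 3.46 CPM to 0.0418 and 0 CPM. AGER, the HMGB1 receptor RAGE, had no count in any library, which allows up to 0.134 CPM in the smallest, and TLR4 reached at most 0.303 CPM.

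Of 11 genes of the let-7, LIN28 and IGF2BP axis around HMGA2, 8 were tested in ICM 3-4 against WT, and 0 rose and 3 fell, where 27.8% of all genes rose and 27.3% fell. DICER1, which matures let-7, fell from 92.0 and 115 CPM to 30.9 and 43.6 CPM (-1.67, SE 0.21, adjusted p by edgeR 0.00193), and was at 222 and 109 CPM in ICM 1 and ICM 2. In siHMGB2 against WT 8 were tested, and 1 was called higher and 1 lower, where 10.9% of all genes were called. DICER1 fell (-0.64, SE 0.14, adjusted p by edgeR 0.00803). IGF2BP3, an mRNA-binding protein that protects HMGA2 transcripts, rose (0.55, SE 0.13, adjusted p 0.0178). The median log2 fold change of the 8 was 0.012, beside 0.0018 over all genes. A part of these genes in the rise of HMGA2 there was not tested. LIN28A and LIN28B, which block let-7 maturation, had no count in any library. Of 9 genes of senescence heterochromatin foci, 3 rose and 3 fell in ICM 3-4, where 55.2% of all genes were called, among them UBN1 (1.09, SE 0.15, adjusted p 0.00237) and MACROH2A2 (-3.51, SE 0.65, adjusted p 0.00629). Of 8 partners of HMGB proteins in the SET complex and beside it, 7 were tested in ICM 3-4 against WT. Of these, 1 (SIRT1, 1.33, SE 0.19, adjusted p 0.00268) rose and 3 fell, beside the same 55.2% of all genes called. PARP1 fell the furthest (-0.90, SE 0.16, adjusted p 0.00548). In ICM 1-2 against WT the fit to its own 4 libraries called no gene of these lists.

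The fit to all 14 libraries gave other counts for these 6 lists. In ICM 3-4 against WT, where it called 14.3% of genes higher and 16.0% lower, it called 1 linker histone higher and 1 lower, 3 HMG-box genes higher and 5 lower, and 1 gene of extracellular HMGB1 signalling higher and 3 lower. It called 0 genes of the let-7 axis higher and 1 lower, 1 gene of the heterochromatin foci higher and 1 lower, and 1 HMGB partner higher and 1 lower. In ICM 1-2 against WT, with 6.63% of genes called higher and 6.86% lower, it called 5 of the 7 linker histones higher and 1 lower. H1-1, with the highest log2 fold change of those called, was at 0 CPM in both WT libraries and at 1.70 and 0.24 CPM in ICM 1 and ICM 2. The larger share of small RNA genes in ICM 1-2 cannot be told apart from treatment in that comparison. There 5 HMG-box genes, 3 HMGB partners and CXCL12, a chemokine that binds HMGB1 (-4.51, SE 0.94, adjusted p by edgeR 0.0128), were called lower. It called no gene in siHMGB2 against WT.

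Of 18 proliferation genes 14 fell and 0 rose in ICM 3-4 against WT, where 27.3% of all genes fell and 27.8% rose. The median log2 fold change of the 18 was -3.18. Their summed level was 484 and 489 CPM in WT, 479 and 466 CPM in siHMGB2, and 108, 223, 222 and 259.6 CPM in ICM 1 to ICM 4. The sum and HMGB1 were both lower in every ICM library than in WT, and among the ICM libraries ICM 4 had the highest sum and the lowest HMGB1. Of the 18 genes 16 had a negative log2 fold change in ICM 3-4 against WT and 2 a positive one. TYMS was at 29.9 and 32.0 CPM in WT and 35.6 and 42.6 CPM in ICM 3 and ICM 4. MKI67 went from 32.7 and 38.8 CPM to 0.0418 and 0.158 CPM. The order of the ICM libraries by the sum thus also depends on genes that did not fall. The part of the sum in the falls of HMGB1 and HMGB2 was not tested. In siHMGB2 against WT the sums lay close to WT, and HMGB2, itself the siRNA target there, was 7.93-fold lower. There 1 of the 18 (CCNA2, 0.54, SE 0.14, adjusted p by edgeR 0.0217) was called, higher, where 10.9% of all genes were called.

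The labelled cell type was checked by its markers. All 11 lung fibroblast markers were at 1 CPM or more in each of the 14 libraries. Their sum was 24556 and 32480 CPM in WT, 37029 and 44185 CPM in siHMGB2, 19925 and 4974 CPM in ICM 1 and ICM 2, and 4910 and 2435 CPM in ICM 3 and ICM 4. In ICM 3-4 against WT 9 of the 11 fell, where 27.3% of all genes did. PDGFRA fell furthest of the 11, from 1555 and 1791 CPM to 30.4 and 15.5 CPM. The sum moved with the ICM groups and with ICM 1 against ICM 2, and its part in the results on the 10 genes was not tested. Of 7 epithelial markers KRT8 and KRT18 were at 1 CPM or more, KRT18 rose in ICM 3-4 (1.87, SE 0.16, adjusted p by edgeR 0.0007), and KRT19 (at most 0.899 CPM), EPCAM (at most 0.680 CPM), CDH1 (at most 0.0486 CPM) and the surfactant genes SFTPB and SFTPC (no counts) were at or near 0. PECAM1 and CDH5 of the 5 endothelial markers and PTPRC and CD3E of the 6 immune markers did not pass 0.135 CPM in any library, and CD68, at 39.1 to 104 CPM, was the immune marker at 1 CPM or more. With HMGB2 knocked down, 2 of the 4 epithelial markers tested were called against WT, both higher, where 6.14% of all genes were called higher. KRT8 was 1 of the 2 (0.70, SE 0.18, adjusted p by edgeR 0.0227). The summed level of the epithelial markers was 58.4 and 54.6 CPM in WT, 71.8 and 99.4 CPM in siHMGB2, 33.8 and 154 CPM in ICM 1 and ICM 2, and 212 and 191 CPM in ICM 3 and ICM 4. Among the endothelial markers TEK, the angiopoietin receptor, was at 67.3 and 81.8 CPM in WT, 240.9 and 68.1 CPM in ICM 1 and ICM 2, and 15.3 and 2.88 CPM in ICM 3 and ICM 4, and KDR reached 8.13 CPM and VWF 1.63 CPM. The endothelial sum was 74.6 and 89.1 CPM in WT, 78.5 and 62.7 CPM in siHMGB2, 243.5 and 68.4 CPM in ICM 1 and ICM 2, and 16.2 and 2.96 CPM in ICM 3 and ICM 4. The part of these sums in the results on the 10 genes was not tested either.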

How the data were processed

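RNA of 14 libraries was sequenced, and the authors deposited whole-number counts per gene symbol, 1 table per library. The submitters' processing notes name STAR 2.7.3a, HTSeq 0.12.4, DESeq2 1.36.0 and the build hg38, and the strand setting and annotation release are not given in the sources used here. Lines that name no gene held 12.7% to 41.8% of a library's counts and were left out. Groups follow the labels, although the names given to the tables of siSRRM2 and siBANF1 are exchanged. The genes, lists and tests were chosen with earlier results of these data known.

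Each comparison was fitted to its own 4 libraries with edgeR 4.0.16 (R 4.3.3, TMM scaling, filterByExpr, quasi-likelihood F-test), and genes with a Benjamini-Hochberg adjusted p under 0.05 over all genes tested were called. Spread differed between groups, so a single fit to all 14 libraries was an alternative, beside relative log expression, total counts, other filters, DESeq2 1.42.0, a replicate block, protein-coding genes only, added pseudogene counts, ICM 1-4 as a group and leaving out each library. CPM used total gene counts. Named genes were the 10 members, the highest and lowest called gene of each of 11 fixed lists (115 genes), the 5 genes most like HMGB1, HMGB2 and HMGA2, and the targeted genes. Positions are from GENCODE v29, and promoter windows from RefSeq. A limit for a count of 0 is 3 counts and covers counting error only. Tables and figures were made in Python 3.11.15 with pandas 2.3.3, scipy 1.17.1 and matplotlib 3.10.9.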

Additional observations from a re-analysis of the deposited data

Results flagged for a closer look

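Among the 4 ICM libraries HMGB1 was at 158 CPM in ICM 2 and at 97.6 to 104 CPM in the other 3, a gap larger than the critical value of Dixon's test for 4 values. The 10 genes were each examined in this way, and chance marks about 1 group in 20. ICM 2 was below both WT libraries all the same.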

How the results depend on the processing

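The falls of HMGB1, HMGB2, HMGB3, HMGA2 and HMGN1 and the rise of HMGA1 in ICM 3-4 against WT kept their direction under all alternatives, and their calls too, except that of HMGB3 without either WT library. In that comparison the genes called numbered 8648, but 5047 with a minimum mean of 10 CPM, where fewer genes are tested, and 4697 to 10617 when a library was left out, with 5 to 9 of the 10 members called. In ICM 1-2 against WT the count went from 0 to 18 with relative log expression, 26 with total counts, 2658 with at least 1 count, 1917 with DESeq2, 2580 in the single fit to 14 libraries, 219 with ICM 1-4 and 320 to 10741 when a library was left out, with 3, 3, 4 and 2 members called under at least 1 count, DESeq2, the single fit and ICM 1-4, and 0 to 9 under the last. Where a group was reduced to 1 library, that library was assumed to vary like the other group. In siHMGB2 against WT the count was 1668, 0 in the single fit (0 members) and 815 to 2101 with a library left out. For siSRRM2 against ICM 1-2 it was 206 with DESeq2, 34 in the single fit and 2 to 12350 with a library left out (0 to 8 members), for siBANF1 against ICM 1-2 7 with at least 1 count and 0 to 11 with a library left out. For ICM 3-4 against ICM 1-2 the count of 136 became 529 with total counts, 2809 with at least 1 count, 65 with a minimum of 10 CPM, 2291 with DESeq2, 3739 in the single fit, 1 among protein-coding genes and 360 to 6594 with a library left out, with 2, 2 and 3 members under at least 1 count, DESeq2 and the single fit and 0 to 2 with a library left out. Unless a smaller set of genes or libraries is named, the cause was not tested.

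The replicate numbers are shared between groups, but no label says that they mark a shared isolate or day. Deviations of same-numbered libraries correlated at -0.25 for ICM 1-2 and WT, 0.16 for siHMGB2 and WT, 0.12 for siSRRM2 and ICM 1-2 and 0.87 for siBANF1 and ICM 1-2. With the replicate block 1183 genes and 0 members were called in ICM 1-2 against WT, 2443 genes and 4 members (HMGA1 added, adjusted p 0.00025 by edgeR) in siHMGB2 against WT, 34 genes in siSRRM2 against ICM 1-2, and 1 in siBANF1 against ICM 1-2. With the block by the numbers in the table names (correlation 0.87), siCTCF against ICM 3-4 called 4 genes. No paired analysis was possible because the numbers differ in ICM 3-4 against WT and in ICM 3-4 against ICM 1-2.

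Changes of sign were confined to log2 fold changes that were not called with all libraries in the edgeR fit. Total counts moved the median of all genes from 0.0099 to 0.20 in ICM 3-4 against WT and from -0.080 to 0.071 in ICM 3-4 against ICM 1-2. With total counts HMGN4 was at 0.040 in ICM 3-4 against WT and at 0.071 in ICM 1-2 against WT, and in siHMGB2 against WT HMGB1, HMGN1 and HMGN4 were at -0.044, -0.030 and -0.013. In ICM 1-2 against WT HMGN4 was at 0.0030 with relative log expression, 0.0030 with DESeq2 and 0.026 among protein-coding genes, and HMGA1 at 1.07 with ICM 1-4. In siBANF1 against ICM 1-4 HMGB1, HMGA1 and HMGN1 were at 0.17, -0.67 and 0.19, and against ICM 1-2 HMGN5 was at 0.016 with relative log expression, 0.015 with DESeq2 and 0.0075 in the single fit. In ICM 3-4 against ICM 1-2 HMGB2, HMGB3 and HMGN3 were at 0.12, 0.074 and 0.023 with total counts and HMGB2 at 0.0023 in the single fit. With a library left out, the ranges that crossed 0 were as follows. In ICM 1-2 against WT HMGA1 ran from -0.87 to 0.35 and HMGN4 from -0.49 to 0.33. In siHMGB2 against WT HMGB1 ran from -0.066 to 0.096 and HMGN1 from -0.034 to 0.097. In siSRRM2 against ICM 1-2 HMGB1 ran from -0.14 to 0.37, HMGB3 from -0.59 to 0.52, HMGA1 from -0.96 to 0.37, HMGN3 from -0.16 to 1.02 and HMGN4 from -0.038 to 0.89. In siBANF1 against ICM 1-2 HMGB1 ran from -0.41 to 0.25, HMGB3 from -0.35 to 0.79, HMGN1 from -0.29 to 0.17, HMGN2 from -1.08 to 0.42, HMGN3 from -1.13 to 0.61, HMGN4 from -0.64 to 0.41 and HMGN5 from -0.40 to 0.34. In siCTCF against ICM 3-4 HMGB3 ran from -0.013 to 0.080, HMGA1 from -0.084 to 0.00069, HMGA2 from -0.021 to 0.29, HMGN1 from -0.0084 to 0.19, HMGN2 from -0.12 to 0.29 and HMGN3 from -0.057 to 0.38. In ICM 3-4 against ICM 1-2 HMGB2 ran from -0.26 to 0.28, HMGB3 from -0.45 to 0.55, HMGN2 from -0.16 to 0.70, HMGN3 from -0.53 to 0.54 and HMGN4 from -0.50 to 0.32. HMGN5, below 1 CPM in ICM 1-2, is the member that depth limits most.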
